A study of Mus musculus with 4 samples.

Results

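The antioxidant, glutathione and detoxifying genes encode the enzymes with which a cell removes superoxide, peroxides and reactive aldehydes and hydrolyses or conjugates foreign compounds. They were chosen by gene symbol, with earlier results of these data known. The list holds the glutathione transferases (Gst), aldehyde dehydrogenases (Aldh), carboxylesterases (Ces), superoxide dismutases (Sod), glutathione peroxidases (Gpx), peroxiredoxins (Prdx) and thioredoxin reductases (Txnrd), with Cat, Nqo1, Gclc, Gclm, Gsr, Nfe2l2 and Keap1. These 89 genes, which include Ces2d-ps and Gstm2-ps1, named as pseudogenes, are part of the 33924 gene symbols in the annotation, and 65 of them had enough counts to be tested, among 21340 genes tested. The question was which of them differ in level between skeletal stem/progenitor cells (SSPCs) of mature and of elderly mice.

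RNA was sequenced from Lin-LEPR+ bone marrow cells, which lack the lineage markers Ter119, CD31 and CD45 and carry the leptin receptor LEPR, of wild-type (WT) male C57Bl/6 mice aged 3 months (mature) or 24 months (elderly). Each age had 2 libraries, and the methods state that RNA of 3 or 4 mice per group was combined, without saying whether the libraries of an age came from separate mice. Every SD with n = 2 therefore measures only how much these libraries vary, which may be technical. Each p-value also draws on the spread of other genes between the same libraries, so it carries the same limit. In the labels the source is whole bone marrow and each library a mouse, while the sort comes from the study's methods. The libraries held 11930137 and 11730849 counts (mature) and 10472117 and 15650518 counts (elderly). Lepr itself was counted at 6385 and 5637 CPM in mature and 4107 and 5787 CPM in elderly libraries, where CPM is the library's count rate after scaling by library size and by the TMM (trimmed mean of M values) factor. Cxcl12, the chemokine of these stromal cells, was at 11660 and 13640 CPM against 7183 and 9344 CPM.

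Markers of other marrow cells moved with age, although the sort was set to remove them. Of all genes tested, 2.28% were higher and 0.45% lower in elderly libraries at an adjusted p under 0.05 (edgeR), the shares to set beside the counts below. The summed level of the erythroid markers was 490.6 and 236.7 CPM in mature and 1680 and 1508 CPM in elderly libraries, and 11 of 14 tested were higher at an adjusted p under 0.05. The sum of the neutrophil markers was 2124 and 1219 CPM against 4568 and 4508 CPM, with 8 of 12 higher. That of the macrophage markers was 26.43 and 26.16 CPM against 52.55 and 88.35 CPM, with 4 of 9 higher (C1qa, C1qb, C1qc and Mrc1). This sum leaves out Vcam1, which is among the 9 but also a stromal marker. Of the 9, 7 had a positive log2 fold change, with Csf1r near 0 (0.01), and 2 a negative one. These were Vcam1, which overlapped between ages, and Cd68 (10.5 and 17.3 against 9.70 and 8.58 CPM). The 12 stromal markers summed to 37910 and 38800 CPM against 27280 and 35530 CPM, and 0 of 12 passed the edgeR test while 3 were lower at an unadjusted p under 0.05. The other lists passed in 1 of 8 (B-lineage, where Cd79b was at 0), 2 of 7 (plasma), 0 of 7 (megakaryocyte), 0 of 6 (eosinophil), 0 of 6 (T and NK), 1 of 6 (endothelial), 2 of 10 (osteoblast, 1 higher and 1 lower), 4 of 6 (chondrocyte, 1 higher and 3 lower) and 0 of 6 (adipocyte, where Lep was at 0) of the markers tested, all higher except as given. At an unadjusted p under 0.05, 4 of 6 T and NK markers were higher and 0 lower, with low sums of 4.30 and 6.00 against 18.95 and 10.16 CPM. For B-lineage markers 4 were higher and 1 lower (Ebf1, also a stromal marker), and the sums without Ebf1 were 40.5 and 32.1 against 94.6 and 64.7 CPM. Of all 21340 genes, 1623 were higher and 776 lower at that threshold. In a bulk sample, a change in the number of cells of a type cannot be told apart from a change in RNA per cell, and the part of these other cells in the results below was not tested.

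Superoxide dismutases turn superoxide into hydrogen peroxide, which catalase, glutathione peroxidases and peroxiredoxins then reduce. The ligase whose subunits are encoded by Gclc and Gclm joins glutamate and cysteine in the first step of glutathione synthesis. Glutathione is kept reduced by glutathione reductase (Gsr), while NRF2 (Nfe2l2), which KEAP1 holds in check, switches on many of these genes. Aldehyde dehydrogenases oxidise aldehydes, among them retinaldehyde, carboxylesterases cleave esters and amides, and aldehyde dehydrogenase activity is widely used to mark stem and progenitor cells.

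Sequences are shown first where they bear on how the genes could be counted. Aldh1a1 and Aldh1a7 are close copies on chromosome 19 (NCBIM37, the mm9 build of the files), at chr19:20676451-20717952 (+ strand) and chr19:20767443-20802052 (- strand), 49490 bases apart. Their coding sequences of 1506 bases were 91.6% identical, and 205 of 1467 windows of 40 bases were the same in both. The first 120 coding bases are shown, with the 10 bases that differ in capitals:
Aldh1a1: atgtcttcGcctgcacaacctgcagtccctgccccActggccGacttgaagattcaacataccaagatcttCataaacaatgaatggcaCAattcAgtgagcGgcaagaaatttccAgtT
Aldh1a7: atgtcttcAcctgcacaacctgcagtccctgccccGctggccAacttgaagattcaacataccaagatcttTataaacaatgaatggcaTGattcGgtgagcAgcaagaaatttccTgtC
Ces1d and Ces1g lie on chromosome 8 at chr8:95689967-95721737 and chr8:95826268-95861207, both on the - strand and 104530 bases apart. They were 81.6% identical over 1698 coding bases with 18 of 1659 windows shared, and 34 bases differ in the stretch shown:
Ces1d: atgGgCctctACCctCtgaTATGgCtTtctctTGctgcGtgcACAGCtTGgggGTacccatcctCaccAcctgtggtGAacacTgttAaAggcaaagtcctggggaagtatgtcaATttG
Ces1g: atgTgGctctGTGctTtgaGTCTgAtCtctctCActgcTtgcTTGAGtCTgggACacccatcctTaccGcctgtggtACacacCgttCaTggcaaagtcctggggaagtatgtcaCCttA
Reads that fall in a shared window could belong to either copy, and over the whole exonic sequence 8.54% (Aldh1a1), 8.47% (Aldh1a7), 3.4% (Ces1d) and 3.09% (Ces1g) of 40-base windows occurred more than once in the genome. For Ces2g, another carboxylesterase discussed below, this share was 8.7%.

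Glutathione peroxidases that carry selenocysteine at the active site read an in-frame TGA codon, shown in capitals because Gpx1, the member that was higher in elderly cells, is one of them. Of the Gpx genes, Gpx1 to Gpx4 had such a codon and Gpx5 to Gpx8 had none. The 63 coding bases around it were:
Gpx1, codon 47: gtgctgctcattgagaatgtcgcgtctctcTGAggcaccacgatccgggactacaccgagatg
Gpx2, codon 40: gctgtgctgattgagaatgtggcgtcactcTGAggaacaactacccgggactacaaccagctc
Gpx3, codon 73: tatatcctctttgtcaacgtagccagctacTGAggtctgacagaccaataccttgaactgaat
Gpx4, codon 73: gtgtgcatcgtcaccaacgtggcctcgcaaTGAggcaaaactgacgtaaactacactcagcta

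Of the 65 tested members, 7 were higher in elderly cells at an adjusted p under 0.05 (edgeR quasi-likelihood test), which is 10.8% against 2.28% of all genes tested. They were 3 carboxylesterases (Ces1d, Ces1g, Ces2g), 3 retinaldehyde dehydrogenases or their copy (Aldh1a1, Aldh1a7, Aldh1a2) and Gpx1. No member was lower by edgeR, by DESeq2 or by edgeR's exact test, against 0.45% of all genes lower by edgeR, and 3 members were lower at an unadjusted p under 0.05. Either way, 2.73% of all genes passed. Among the members with a mean of at least 1 CPM, 7 of 54 passed (13.0%), all higher, against 3.38% of such genes higher and 0.667% lower. The median log2 fold change was 0.04 over the 65 members and 0.02 over all genes tested, and 35 members had a positive and 30 a negative value. The ages did not overlap for 31 members, 21 higher (32.3%) and 10 lower (15.4%) in elderly cells, against 22.9% and 18.1% of all genes. The 47 members with at least 1 CPM that did not pass had a median of -0.02 and a range from -0.72 to 0.94.

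**Figure D1:**
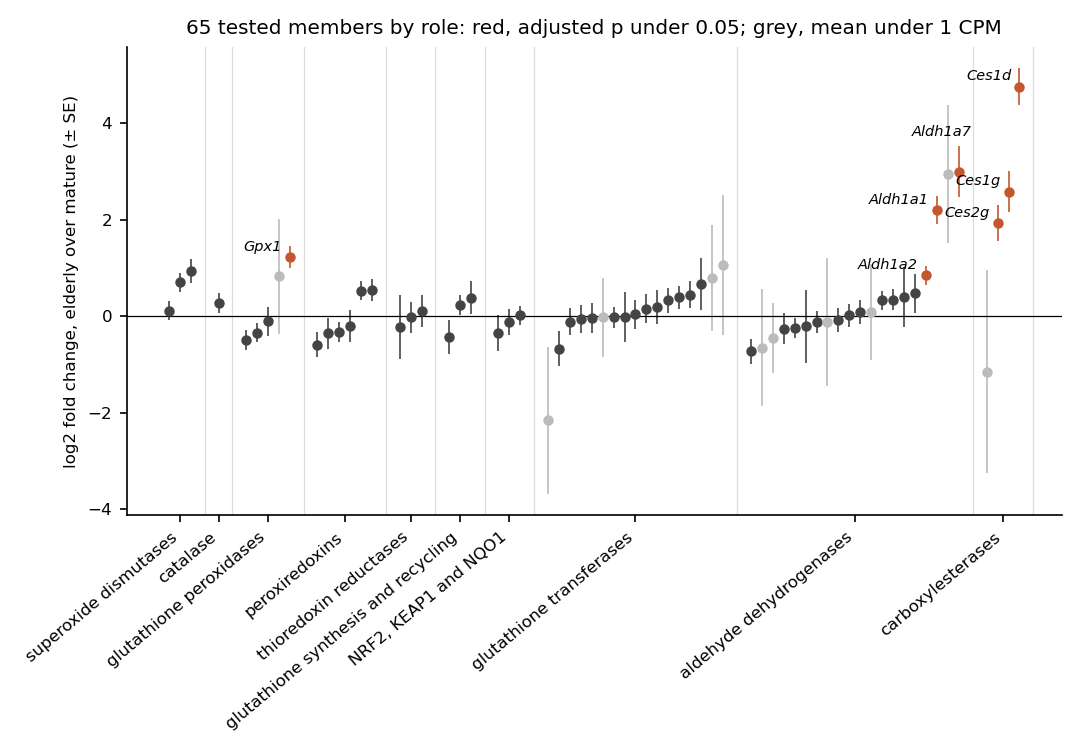
Log2 fold change of elderly over mature cells for the 65 tested members (y axis), grouped by role (x axis), each point with its standard error from edgeR. Red points passed at an adjusted p under 0.05, and grey points had a mean under 1 CPM; the 7 red points lie at 0.845 or above and belong to 3 of the 10 groups.

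Of the carboxylesterases, 3 of 4 tested genes were higher (75.0%, against 2.28% of all genes), Ces1d by the largest log2 fold change among the tested members. The fourth, Ces1a, named after its values were seen, did not pass (log2 fold change -1.145 ± 2.11 SE, adjusted p = 0.922). Of 20 genes in this group, 16 were not tested, and 15 of those had 0 counts in all libraries. Ces1d, which cleaves triglycerides and drug esters in liver and fat, had 1.46 and 0.686 CPM (17 and 8 counts) in mature and 27.1 and 31.4 CPM (302 and 476 counts) in elderly libraries. The mean rose from 1.08 ± 0.550 to 29.3 ± 3.02 CPM (SD, n = 2 each), a log2 fold change of 4.76 ± 0.38 (SE, 95% interval 3.93 to 5.58, adjusted p = 5.6e-05). The ages did not overlap, and both mature libraries were near the limit of detection, since 3 counts correspond to 0.257 or 0.258 CPM there. In the fit without elderly replicate 2, no gene of the whole table passed, and the adjusted p of each of the 7 was 0.601. In the other fits that left out a library Ces1d was the member that always passed, with the change moving to 5.40 without mature replicate 1.

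Ces1g, its neighbour, had 8.61 and 4.37 CPM in mature and 22.5 and 55.0 CPM in elderly libraries. The mean was 6.49 ± 2.99 against 38.7 ± 23.0 CPM (SD, n = 2 each, log2 fold change 2.58 ± 0.42 SE, adjusted p = 0.00576). The elderly libraries were both above the mature ones but differed from each other, and the log2 fold change was 1.79 without elderly replicate 2. The adjusted p was 0.0522 without elderly replicate 1 and 0.0512 in the robust fit. Ces2g (chr8:107485618-107493437, + strand), of the second carboxylesterase cluster on chromosome 8, had 20.1 and 11.1 CPM in mature and 83.2 and 36.5 CPM in elderly libraries. The mean was 15.6 ± 6.42 against 59.8 ± 33.0 CPM (SD, n = 2 each, log2 fold change 1.94 ± 0.38 SE, adjusted p = 0.0154). Here the excess rested more on elderly replicate 1: the log2 fold change was 1.21 (adjusted p = 0.365) without that library, and the robust fit gave an adjusted p of 0.188.

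The counts of these families were concentrated in few genes. The Ces1 cluster of 8 genes (chr8:95544113-95903624) had 3 tested genes, of which 2 passed, and 5 genes at 0. The Ces2 cluster of 8 genes (chr8:107257903-107544310) had 1 tested gene, Ces2g, which passed, and 6 genes at 0, while both Ces3 genes were at 0. A count of 0 allows up to 3 counts, which is 0.198 to 0.27 CPM in these libraries. Ces3a and Ces4a had 141 and 0 bases that belong to a single transcript, and the authors' counting gave no counts to shared bases, so their 0 could not be read as absence. Every 40-base window of Ces2d-ps and 74.4% of those of Ces2c occurred more than once in the genome, so this limit does not hold for them either. Ces2b, with 46.3% of such windows, was not at 0 but had 2 counts, in elderly replicate 2, too few to be tested.

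**Figure D2:**
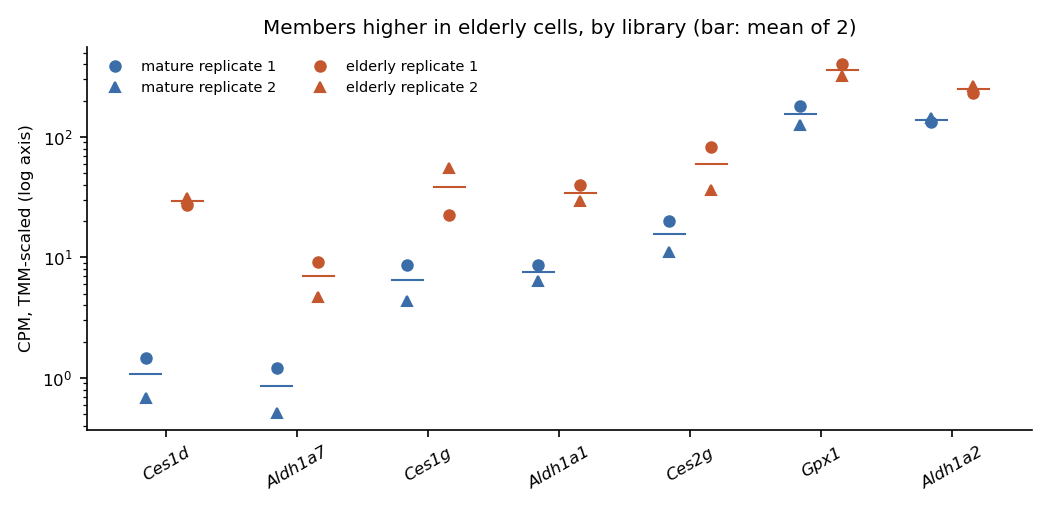
TMM-scaled CPM (y axis, log scale) of the 7 members that passed (x axis) in each library; blue marks the mature and orange the elderly libraries, circles are replicate 1, triangles are replicate 2 and bars are means of 2. For each of the 7 genes both elderly libraries lie above both mature libraries.

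The aldehyde dehydrogenases had 3 of 20 members higher and none lower by edgeR, with 1 lower at an unadjusted p under 0.05. The 3 higher members were all of class 1A, the enzymes that make retinoic acid from retinaldehyde, or its close copy Aldh1a7. Aldh1a1, the best known marker enzyme of stem cells, had 8.69 and 6.35 CPM in mature and 39.7 and 29.3 CPM in elderly libraries. The mean was 7.52 ± 1.66 against 34.5 ± 7.36 CPM (SD, n = 2 each, log2 fold change 2.195 ± 0.29 SE, 95% interval 1.57 to 2.82, adjusted p = 0.00158). Its range over the fits without 1 library was 1.94 to 2.44, and the adjusted p was 0.098 without elderly replicate 1. Aldh1a7 had 1.21 and 0.515 CPM (14 and 6 counts) in mature and 9.25 and 4.69 CPM (103 and 71 counts) in elderly libraries. Its log2 fold change was 3.00 ± 0.54 (SE, adjusted p = 0.00951), with 2.41 (adjusted p = 0.30) without elderly replicate 1 and 3.73 without mature replicate 1. The ages did not overlap for either gene, and because of the windows shared with its copy the value of Aldh1a7 in particular is uncertain.

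Aldh1a2 (chr9:71063596-71144050, + strand), the main retinoic acid enzyme of the embryo, was the most abundant aldehyde dehydrogenase, with 133 and 144 CPM in mature and 233 and 266 CPM in elderly libraries. The mean was 138.7 ± 7.90 against 249.2 ± 23.1 CPM (SD, n = 2 each, log2 fold change 0.845 ± 0.20 SE, adjusted p = 0.0375). The change was small but regular, with 0.75 to 0.92 over the fits without 1 library, and it passed in none of those 4 fits. Aldh1a3, the other enzyme of the class, had a log2 fold change of 0.47 (adjusted p = 0.739). Aldh9a1, which oxidises aminobutyraldehyde, had 117 and 106 CPM in mature and 135 and 145 CPM in elderly libraries and did not pass (log2 fold change 0.33, adjusted p = 0.604). The ages of Aldh9a1 did not overlap.

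Gpx1 (chr9:108241607-108242671, + strand), the cytosolic glutathione peroxidase, had 182 and 126 CPM in mature and 400.0 and 322 CPM in elderly libraries. The mean was 153.9 ± 39.8 against 361 ± 55.0 CPM (SD, n = 2 each), a log2 fold change of 1.23 ± 0.23 (SE, 95% interval 0.74 to 1.72, adjusted p = 0.012). Both elderly libraries were above both mature ones, and the adjusted p was 0.226 without mature replicate 2 and 0.183 without elderly replicate 1. Gpx1 is also abundant in red blood cells, and the erythroid marker sum was higher in both elderly libraries, as given above. The part of red blood cells in the change of Gpx1 was not tested.

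None of the other 4 tested glutathione peroxidases passed, with 1 lower at an unadjusted p under 0.05. Gpx3, which is secreted into plasma, had 1481 and 1452 CPM in mature and 1077 and 1233 CPM in elderly libraries, and Gpx8, of the endoplasmic reticulum, had 378 and 357 CPM against 227 and 293 CPM. Both were lower in each elderly library than in each mature one, but neither passed (log2 fold changes -0.345 and -0.50, adjusted p = 0.581 and 0.338). Of the 5 tested Gpx genes, 2 had a positive and 3 a negative value.

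Among the superoxide dismutases, all 3 values were positive and none passed by edgeR, with 2 at an unadjusted p under 0.05. Sod3, the extracellular form, had 34.3 and 40.9 CPM in mature and 54.7 and 88.9 CPM in elderly libraries (log2 fold change 0.94 ± 0.26 SE, adjusted p = 0.0836). Sod2, the mitochondrial form, had 163 and 169 CPM against 297 and 243 CPM (0.70 ± 0.20 SE, adjusted p = 0.0997). The ages did not overlap for either. DESeq2 called both, at adjusted p = 0.0307 and 0.0282. Sod1, the cytosolic form, overlapped between ages, with 95.03 and 83.4 against 99.5 and 93.2 CPM (0.11, 95% interval -0.32 to 0.54). Of the 40-base windows of Sod1 and Sod2, 27.1% and 27.6% occurred elsewhere in the genome.

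Catalase had 134 and 121 CPM in mature and 132 and 175 CPM in elderly libraries, and the ages overlapped (log2 fold change 0.27, 95% interval -0.18 to 0.72, adjusted p = 0.706). None of the 6 peroxiredoxins passed by edgeR, with 2 higher and 1 lower at an unadjusted p under 0.05. Prdx1, of the cytosol, had 93.1 and 117 CPM against 75.8 and 91.7 CPM (log2 fold change -0.32, adjusted p = 0.654), whereas Prdx6, which also acts as a phospholipase, had 88.0 and 64.1 CPM against 123 and 98.7 CPM (0.54, adjusted p = 0.345). None of the 3 thioredoxin reductases, which keep thioredoxin reduced, passed by edgeR, and 0 had an unadjusted p under 0.05. Txnrd1 had 7.06 and 6.78 against 7.19 and 6.47 CPM (log2 fold change -0.02), and Txnrd3 had 9.90 and 6.09 against 8.54 and 8.71 CPM (0.11). Only 16.6% and 12.1% of their longest transcripts could be counted, because bases shared by several transcripts received no counts.

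**Figure D3:**
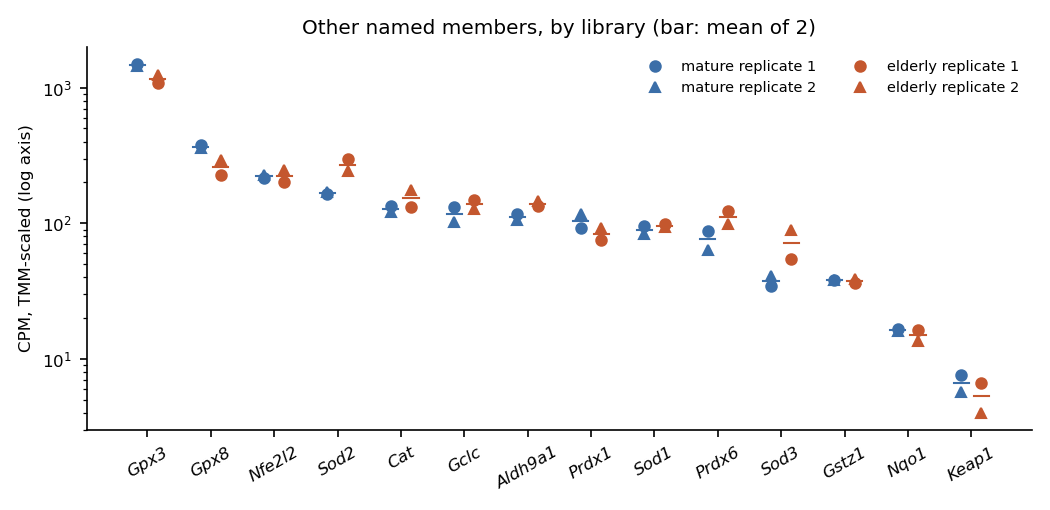
TMM-scaled CPM (y axis, log scale) of 14 members that did not pass (x axis) in each library; blue marks the mature and orange the elderly libraries, circles are replicate 1, triangles are replicate 2 and bars are means of 2. Sod2, Sod3 and Prdx6 lie higher in both elderly libraries, Gpx3, Gpx8 and Prdx1 lower, and Nfe2l2, Nqo1 and Sod1 overlap.

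None of the genes of NRF2 and of glutathione synthesis passed by edgeR, and 0 had an unadjusted p under 0.05. Nfe2l2 had 217 and 226 CPM in mature and 202 and 246 CPM in elderly libraries (log2 fold change 0.02, 95% interval -0.41 to 0.45), and its sign turned with the filter. Keap1 had 7.66 and 5.75 against 6.65 and 4.03 CPM (-0.34, 95% interval -1.14 to 0.47). Nqo1, the quinone reductase often read as a sign of NRF2 activity, had 16.6 and 16.1 against 16.4 and 13.6 CPM (-0.13, 95% interval -0.705 to 0.45).

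Gclc, the catalytic subunit of glutamate-cysteine ligase, had 132 and 103 against 148 and 128 CPM (log2 fold change 0.24, 95% interval -0.21 to 0.69), and the ages overlapped. Gclm, its modifier subunit, had 5.51 and 4.80 against 6.38 and 7.06 CPM (0.38, 95% interval -0.35 to 1.115), and Gsr had 5.85 and 6.86 against 5.12 and 4.29 CPM (-0.44, 95% interval -1.19 to 0.32). The ages of Gclm and Gsr did not overlap, in opposite directions. Most counts of Gsr came from a transcript annotated as processed rather than protein-coding, with 33 countable bases. It had 60 and 66 counts in mature and 47 and 55 in elderly libraries. The protein-coding transcript of Gsr had 6 and 12 against 10 and 10 counts (log2 fold change 0.04), so the lower Gsr value does not describe the coding transcript. Only 5.58% of the longest transcript of Gclm, 16.4% of that of Gsr and 23.2% of that of Keap1 could be counted.

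The glutathione transferases, which attach glutathione to electrophiles, had 17 of 22 members tested. None passed by edgeR, and none had an unadjusted p under 0.05 in either direction. Their log2 fold changes ran from -2.16 to 1.06 with a median of 0.04, and the ages did not overlap for 6 higher (35.3%) and 2 lower (11.8%), against 22.9% and 18.1% of all genes. Gstm2-ps1, named as a pseudogene, is among the 17, and without it the median was 0.01. Gstz1, which also isomerises maleylacetoacetate in tyrosine breakdown, had 38.5 and 38.3 against 36.3 and 39.2 CPM, a difference near 0 (log2 fold change -0.02, adjusted p = 0.986). Gsta4, which conjugates the lipid peroxidation product hydroxynonenal, had 32.4 and 22.2 against 28.1 and 46.2 CPM (0.45, adjusted p = 0.648).

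Compared per kilobase of countable exon, Gpx3 was the most abundant member at both ages, with 1330 CPM per kb in mature and 1040 CPM per kb in elderly cells. In mature cells Gpx8 (361), Gpx1 (182) and Sod1 (138 CPM per kb) followed, and in elderly cells the order was Gpx1 (426), Gpx8 (256) and Sod1 (149 CPM per kb). The places of Gpx1 and Gpx8 were thus exchanged. Cat (69.5 and 83.8 CPM per kb) and Aldh1a2 (61.3 and 110 CPM per kb) came next. Ces1d went from 0.687 to 18.7 CPM per kb and Aldh1a1 from 3.66 to 16.8 CPM per kb, levels below that of Nfe2l2 in mature cells (60.3 CPM per kb).

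**Figure D4:**
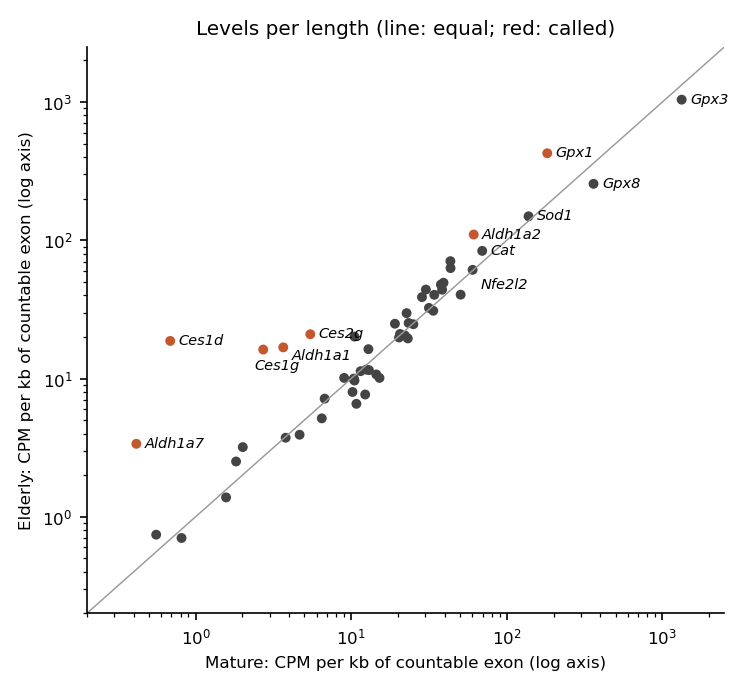
Mean CPM per kb of countable exon in mature (x axis) and elderly (y axis) cells, both on log scales, for tested members with a mean of at least 1 CPM; the line marks equal levels and red points passed at an adjusted p under 0.05. Gpx3 is the highest point at 1330 and 1040 CPM per kb, and Ces1d lies farthest above the line.

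The annotation gives 1 transcript each for Ces1g, Ces2g, Aldh1a1, Aldh1a7, Aldh1a2 and Gpx1 and 4 for Ces1d, so among the 7 only Ces1d could differ between transcripts. Of 267 transcripts of the members, 133 were tested and 6 passed, all higher in elderly cells, against 1.66% of all transcripts either way and 1.44% higher. These 6 were transcripts of Ces1d, Ces1g, Aldh1a1, Aldh1a7, Ces2g and Gpx1, and that of Aldh1a2 had an adjusted p of 0.0561. Without elderly replicate 1, and likewise without elderly replicate 2, 0 transcripts of the members passed.

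The antioxidant response element, the DNA letters at which NRF2 binds with small MAF proteins, was searched as TGACNNNGC on both strands. For each gene, the 250 bases before the start of its protein-coding transcript with the most counts were read. Other annotated starts were not searched, and the chosen start can lie inside the gene, as for Txnrd1. The element was present before 10 of 65 tested members (15.4%) and 1 of the 7 that passed (14.3%), against 11.0% of 15839 tested protein-coding genes. The match among the 7 was in Aldh1a2, as TGACCGTGC at -112, and a match is a description of letters and not a site. The upstream windows (mm9) of a member with the motif that passed, one with it that did not and one without it that did are shown, with the motif in capitals. Those of Aldh1a2 and Prdx1 hold the motif and that of Ces1d does not:
Aldh1a2, chr9:71063346-71063595 (+): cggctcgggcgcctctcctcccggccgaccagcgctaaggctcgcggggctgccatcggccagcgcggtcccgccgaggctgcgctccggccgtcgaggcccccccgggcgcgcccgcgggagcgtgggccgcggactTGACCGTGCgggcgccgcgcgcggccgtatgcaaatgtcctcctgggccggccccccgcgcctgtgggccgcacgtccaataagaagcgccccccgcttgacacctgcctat
Prdx1, chr4:116357899-116358148 (+): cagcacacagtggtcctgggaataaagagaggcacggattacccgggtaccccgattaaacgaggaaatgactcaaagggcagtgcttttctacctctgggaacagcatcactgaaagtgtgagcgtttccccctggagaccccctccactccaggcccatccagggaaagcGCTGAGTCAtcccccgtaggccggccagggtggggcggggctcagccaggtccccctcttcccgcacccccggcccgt
Ces1d, chr8:95721738-95721987 (-): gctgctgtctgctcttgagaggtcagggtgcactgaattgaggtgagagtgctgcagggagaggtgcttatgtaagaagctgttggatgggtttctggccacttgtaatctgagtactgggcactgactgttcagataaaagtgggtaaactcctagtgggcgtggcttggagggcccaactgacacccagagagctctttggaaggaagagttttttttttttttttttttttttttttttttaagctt
The Aldh1a2 window had 77.6% G and C and 40 CpG dinucleotides, the Ces1d window 45.2% and 1. The windows of Aldh1a1, Aldh1a7, Ces1g and Ces2g were also low in G and C, at 46.4%, 42.8%, 44.8% and 42.0%, that of Gpx1 had 61.2% and 12 CpG, and the median G and C content was 57.6% over all genes searched.

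Of 40 other NRF2 targets and antioxidant genes tested, 3 were higher (7.5%, against 2.28% of all genes) and 0 lower (against 0.45%) in elderly cells by edgeR, with 2 lower at an unadjusted p under 0.05 and a median log2 fold change of 0.14. They were Tkt, a transketolase of the pentose phosphate pathway (149.9 and 117.8 against 260.8 and 241 CPM, log2 fold change 0.91, adjusted p = 0.0325), the glutaredoxin Glrx (41.5 and 31.2 against 64.6 and 81.5 CPM, log2 fold change 1.01, adjusted p = 0.0369), and Slc7a11, which imports cystine (33.1 and 15.4 against 100.4 and 44.5 CPM, log2 fold change 1.58, adjusted p = 0.0488). None of 21 other glutathione metabolism genes passed by edgeR, with 3 higher and 1 lower at an unadjusted p under 0.05. Of 11 tested partners and regulators of NRF2, Nfe2l3 was lower (31.4 and 33.7 against 14.1 and 16.3 CPM, log2 fold change -1.10, adjusted p = 0.0325).

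Against the same 2.28% and 0.45% of all genes, the enzymes that make superoxide or peroxide had 3 of 18 higher (16.7%) and none lower by edgeR, with 0 lower at an unadjusted p under 0.05. Among them were Cybb, the catalytic subunit of the phagocyte NADPH oxidase (353 and 214 against 720.5 and 610.0 CPM, log2 fold change 1.23, adjusted p = 0.0169), and Rac2, a GTPase that activates it (57.1 and 25.4 against 128.0 and 127.5 CPM, log2 fold change 1.63, adjusted p = 0.013). Neutrophils and macrophages carry this oxidase, and the neutrophil and macrophage marker sums were higher in both elderly libraries, as given above, with their part not tested. Of 27 retinoid genes tested, 2 were higher (7.41%), among them the retinol dehydrogenase Dhrs9 (18.4 and 11.2 against 34.4 and 35.2 CPM, log2 fold change 1.23, adjusted p = 0.0338). None was lower by edgeR, with 1 lower at an unadjusted p under 0.05 and a median of -0.05. With either elderly library left out, none of the genes in these related lists passed, and without mature replicate 2 the calls were 0 among other NRF2 targets, 0 among NRF2 partners, 1 among the enzymes that make superoxide or peroxide, 1 among other glutathione genes and 1 among retinoid genes.

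**Figure D5:**
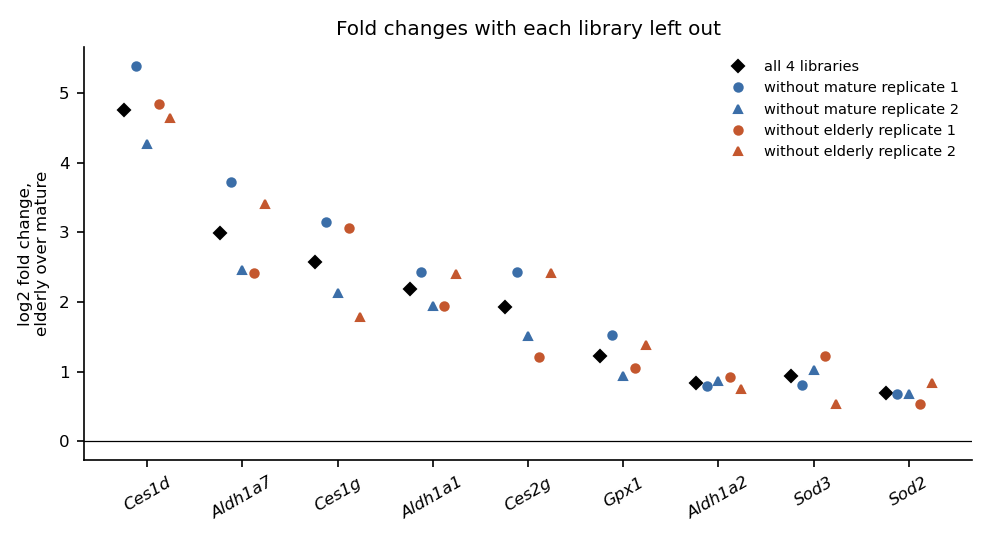
Log2 fold change of elderly over mature cells (y axis) for the 7 members that passed and for Sod3 and Sod2 (x axis), with all 4 libraries (black diamonds) and with each library left out in turn (blue, a mature library left out; orange, an elderly one; circles replicate 1, triangles replicate 2). Each value lies above 0, which was set in advance because the ages did not overlap for any of these genes. The values run from 0.53 for Sod2 to 5.40 for Ces1d, and Ces1g (1.79 to 3.15) and Ces2g (1.21 to 2.43) are among those that move most.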

How the data were processed

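The authors trimmed reads with CutAdapt, mapped them to NCBI Build 37 (mm9) with HISAT2 and counted with featureCounts, and they deposited whole-number counts per Ensembl transcript without normalization. The strand setting is not given in the sources used here. Counts were summed per gene symbol of GENCODE M1, which lacked 388 of 95883 transcripts (0.0785% to 0.0888% of counts). Bases shared by several transcripts received no counts (25621 transcripts without a base of their own had none), so levels per length use bases of a single transcript. Genes with a count sum above 2 were scaled by TMM and tested with edgeR 4.0.16 (quasi-likelihood, 2-sided, trended dispersion, prior count 0.125, Benjamini-Hochberg over all genes), in R 4.3.3 with limma 3.58.1, and DESeq2 1.42.0 was an alternative. The authors' own test (an exact test at dispersion 0.2) was an alternative too. Limits of 3 counts cover counting error only. The test was checked on simulated counts.

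Groups came from the sample titles. Named were the members that passed, the single genes of the symbol rule, the 2 most abundant members per group, the 8 largest changes without overlap between ages, and of each related list the genes that passed. A few genes of the related lists are not reported here. Members and lists were chosen with earlier results of these data known. Sequences are from NCBIM37 and GENCODE M1. Other alternatives were RLE factors, library size alone, no filter, filterByExpr, a robust fit, a prior count of 2, protein-coding transcripts, a replicate block and each library left out.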

Additional observations from a re-analysis of the deposited data

How the results depend on the processing

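With 2 libraries per age, the calls depended on single libraries. The direction of the 7 members that passed did not turn. For each of them both elderly libraries lay above both mature ones, so leaving out 1 library could hardly turn it. The 7 members higher in elderly cells became 3 with the exact test at dispersion 0.2 (Ces1d, Ces1g and Aldh1a7), 0 to 6 with 1 library left out, and 9 with DESeq2, library size alone or no filter, which added Sod2 and Sod3. No member was lower under any alternative. Over all genes tested, those higher in elderly cells were 487 in the main fit and 200 with the exact test. They were 547 with DESeq2, 550 with library size alone and 892 with no filter. The member counts under these 4 alternatives thus moved in the same direction as those of all genes. Without elderly replicate 1 only Ces1d passed, and without elderly replicate 2 no gene of all did. The median over members was 0.04, and -0.047 to 0.223 with 1 library left out. Members without overlap of the ages were 31, and 46 to 52 with 1 library left out, where 1 sample stands for an age. Ages are less likely to overlap by design when 1 library is set against 2. The share over all genes is not given for those fits, so the rise to 46 to 52 is not a result about the members. Transcripts that passed were 6, and 0 to 6. With 1 library left out, calls ranged over 0 to 1 for partners of NRF2, 0 to 4 for enzymes that make superoxide, 0 to 2 for other NRF2 targets, 0 to 1 for other glutathione genes and 0 to 2 for retinoid genes. Library size alone gave 1 other glutathione gene. The sign turned for members near 0, with log2 fold changes for Gstz1 of 0.02 (library size alone), for Nfe2l2 of -0.001 (no filter), -0.008 (filterByExpr) and -0.022 (protein-coding transcripts), and for Txnrd1 of 0.027 (library size alone). With 1 library left out, the range was -0.08 to 0.015 for Gstz1, -0.131 to 0.137 for Nfe2l2, -0.284 to 0.006 for Nqo1, -0.024 to 0.208 for Sod1, -0.113 to 0.055 for Txnrd1 and -0.242 to 0.501 for Txnrd3. The cause was not tested. Of 364 values of the 26 named members under the alternatives, 318 kept their direction and side of the threshold, 22 lost it, 11 gained it and 13 turned. With the replicate number as a block, 9 members passed, Sod2 and Sod3 among them. Same-numbered libraries did not deviate together (correlation 0.0328 over 14361 genes, 2 pairs). With 2 pairs this cannot show whether the number marks a pairing, and the labels do not say that it does.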
